A study of Mus musculus with 6 samples.

Results

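The genes described here are those of brain-derived neurotrophic factor (Bdnf), neurotrophin-3 (Ntf3) and the receptors that bind neurotrophins or their precursors in the brain: Ntrk2 (TrkB), Ntrk3 (TrkC), Ngfr (p75) and Sort1 (sortilin). They were chosen by symbol and are 6 of the 36008 genes in the deposited gene table. Through the GENCODE M21 annotation they correspond to 48 of the 118783 transcripts in the per-mouse transcript files. The RNA came from the hippocampus of female B6J mice at 2 weeks of age, 3 WT and 3 Prmt9 KO, each library from 1 mouse and the controls being littermates of the same sex. The KO is a whole-body deletion, obtained by crossing mice with a floxed exon 5 of Prmt9 to a CMV-Cre line, so that every cell type of the tissue lacks the exon. PRMT9 is an arginine methyltransferase whose substrate, the splicing factor SF3B2, takes part in 3′ splice site recognition, and the study asked which mRNAs change in level or splicing without it. Values are in TPM (kallisto's length-corrected relative abundance, scaled to the same total in every library), and values of a group are listed in the order of mouse 1, mouse 2 and mouse 3.

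Neurotrophins are secreted proteins made as precursors. The mature forms bind Trk receptor tyrosine kinases, BDNF binding TrkB and neurotrophin-3 binding mainly TrkC, whereas p75 binds all neurotrophins and, together with sortilin, their precursors. In hippocampus, BDNF signalling through full-length TrkB is known for its part in synapse maturation and long-term potentiation, and truncated TrkB, which lacks the kinase domain and is the main form in astrocytes, binds BDNF without kinase signalling.

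The Bdnf gene (ENSMUSG00000048482, chr2:109674700-109727007, plus strand, GRCm38) joins 1 of several first exons, each with its own promoter, to a shared exon that holds the coding sequence of the precursor. The junctions of the first exons whose transcripts reached a mean of 0.5 TPM are shown, with the shortest form of exon II for comparison, because they show where the Bdnf transcripts, which differ in their first exons, join the exon they share. Capitals mark the last 15 bases of the first exon and lower case the first 15 bases of the shared exon, which starts at position 109723382 of chromosome 2 (GENCODE M21 transcripts, 5′ to 3′). First exons are numbered with roman numerals in their order along the gene, and exon II has 3 forms that differ in their splice donor.
exon I (Bdnf-201): AGCAAAGCCACAATGttccaccaggtgaga
exon II, longest form (Bdnf-210): TAAGCCGCAAAGAAGttccaccaggtgaga
exon II, middle form (Bdnf-207): CTTGGCAAGCTCCGGttccaccaggtgaga
exon II, shortest form (Bdnf-208): TAGTACTTCATCCAGttccaccaggtgaga
exon IV (Bdnf-209): TAGTGACTGAAAAAGttccaccaggtgaga
exon VI (Bdnf-205): TGTGTGGACCCTGAGttccaccaggtgaga
The capitals of exon I end in ATG, which is the start codon of that form. Its coding sequence has 257 codons, against 249 codons for the forms that start at exons II, IV and VI and take their start codon from the shared exon.

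The window of 200 bases before the start of exon IV, the activity-regulated promoter for which Bdnf is best known, was read from the RefSeq promoter table (GRCm38.p6, chr2:109692236-109692435, plus strand). Capitals mark TCACGTCA, a sequence of the kind bound by CREB.
exon IV promoter: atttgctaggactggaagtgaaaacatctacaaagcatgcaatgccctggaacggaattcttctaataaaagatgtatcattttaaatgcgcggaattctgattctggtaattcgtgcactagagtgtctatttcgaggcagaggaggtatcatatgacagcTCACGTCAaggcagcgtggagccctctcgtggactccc
The match lies 38 to 31 bases before the start. Searched on both strands, TCACGTCA was found in 0.292% of the 32851 promoter windows of the table, the palindrome TGACGTCA in 1.47% and their shared core CGTCA in 15.7%. Of the 11 windows the table holds for these genes, 7 of Bdnf, 2 of Ntf3, 1 of Ntrk2 and 1 of Ngfr, the exon IV window was the only one with any of these 3 strings. The table holds no window before the starts of Bdnf exons II and VI, so their promoters were not searched.

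Ntrk2 (ENSMUSG00000055254, chr13:58806569-59133970, plus strand) and Ntrk3 (ENSMUSG00000059146, chr7:78175959-78738012, minus strand) each encode full-length receptors with a kinase domain and truncated receptors that end in other exons. The truncated forms leave the full-length coding sequence at a single splice donor in each gene, after 464 complete codons in Ntrk2 and 528 in Ntrk3. The sequences around these donors are shown because the forms part there, sharing the bases before the donor and differing in the exon joined next. Lower case is the end of the last shared exon and capitals are the first coding bases that follow (GENCODE M21, 5′ to 3′).
Ntrk2-201, full-length: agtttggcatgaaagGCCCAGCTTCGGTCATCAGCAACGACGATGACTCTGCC
Ntrk2-202, truncated (T1), to its stop codon: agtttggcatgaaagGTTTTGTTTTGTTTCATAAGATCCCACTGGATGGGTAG
Ntrk2-205, truncated: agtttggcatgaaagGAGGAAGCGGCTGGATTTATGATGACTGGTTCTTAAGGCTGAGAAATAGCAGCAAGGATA
Ntrk2-208, truncated, to its stop codon: agtttggcatgaaagCGTGCTAG
Ntrk3-201, full-length: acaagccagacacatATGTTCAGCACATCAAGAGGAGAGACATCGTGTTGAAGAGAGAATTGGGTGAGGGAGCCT
Ntrk3-202, truncated: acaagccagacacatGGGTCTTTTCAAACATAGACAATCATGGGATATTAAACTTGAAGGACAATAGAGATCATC
The T1 form of Ntrk2 has 38 coding bases of its own, ending in TAG, in an exon that starts at position 58932023 of chromosome 13. Ntrk2-204 has the same tail. The truncated Ntrk3 form has 254 coding bases of its own, of which the first 60 are shown.

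The libraries held 194098391 (WT 1) to 286771677 (Prmt9 KO 2) estimated counts. Transcripts with an estimated count of 0 made up 37.4% in WT 1, 24.8% in Prmt9 KO 1 and 22.8% to 23.8% in the other mice. Prmt9 itself was at 11.8, 15.2 and 14.96 TPM in WT and at 3.93, 4.61 and 4.67 TPM in Prmt9 KO mice (log2 fold change −1.71, SE 0.10, adjusted p = 0.0327, quasi-likelihood test of edgeR adjusted by Benjamini-Hochberg). No gene passed an adjusted p of 0.01 with a fold change above 1.5 among 20335 tested (0%), 251 genes (1.23%) had an unadjusted p below 0.05, and DESeq2 called Prmt9 and Gm3373, the latter outside the rule for named genes. The mice numbered 1 stood apart in both genotypes. On the first principal component, with 67.4% of the variance, WT 1 was at −110.3 and Prmt9 KO 1 at −30.6, the others lying between 31.5 and 37.8. Relative to mice 2 and 3 of their genotype, transcripts longer than 8000 bases had a median difference in log2 TPM of −0.82 in WT 1 and −0.43 in Prmt9 KO 1, those of 1000 to 2000 bases were at −0.18 and −0.05, and those under 1000 bases at −0.57 and −0.30. For the 6 genes and their shares, the value without these 2 mice is given where it differs in direction. Defining markers of astrocytes, oligodendrocytes, microglia, excitatory and inhibitory neurons and vessels were all present, and the summed level of each list overlapped between the genotypes. Summed oligodendrocyte markers ranged from 2223 to 10985 TPM in WT and from 1217 to 10613 TPM in Prmt9 KO mice, the lowest value of each group being mouse 1. Between mice of the same number, the summed astrocyte markers were higher in the Prmt9 KO mouse of all 3 pairs, by 119.6, 78.0 and 106.1 TPM. Those of microglia were lower in all 3 pairs (−49.5, −11.0 and −6.21 TPM), as were those of vessels (−6.06, −14.8 and −3.39 TPM). Single markers did not all follow their sum. Of the microglia markers only P2ry12 was lower in all 3 pairs, and no vessel marker was. The astrocyte markers higher in all 3 pairs were Gfap, Slc1a2, Slc1a3 and Gja1. Among astrocyte markers, Aqp4 was lower in pairs 2 and 3 (−11.7 and −14.5 TPM). S100b was lower in pairs 1 and 2 (−10.2 and −4.73 TPM), Aldh1l1 in pairs 2 and 3 (−0.54 and −0.83 TPM) and Sox9 in pair 1 (−1.19 TPM). Tmem119 of microglia was higher in all 3 pairs (0.55, 0.91 and 1.51 TPM), as was Pecam1 of vessels (0.95, 0.86 and 0.29 TPM). P2ry12 of microglia was the only listed marker whose genotypes did not overlap (mean 42.3 TPM in WT, 34.6 TPM in Prmt9 KO), against 6.67% of all tested genes. It was not called (log2 fold change −0.38, SE 0.18, unadjusted p = 0.0728, edgeR). The part of these cell types in the results was not tested. Markers of choroid plexus, a tissue next to the hippocampus, summed to between 609 TPM (WT 2) and 7265 TPM (WT 1), with Prmt9 KO 1 at 866 TPM. In RNA from whole tissue, fewer cells of a type and less RNA per cell cannot be told apart.

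None of the 6 genes was called between the genotypes. Their median log2 fold change (Prmt9 KO over WT) was −0.03, beside −0.01 over all genes tested, and none had an unadjusted p below 0.05 with edgeR, DESeq2 or limma without further terms. In TPM, Bdnf was the only one of the 6 whose genotypes did not overlap, against 6.67% of all tested genes in the gene table, and 1.39% when only genes lower in every Prmt9 KO mouse are counted.

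Ntrk2 and Sort1 had the highest levels, followed by Ntrk3, Bdnf, Ntf3 and Ngfr. Over the 6 mice, Ntrk2 ranged from 89.1 to 192.1 TPM and Sort1 from 84.8 to 172.6 TPM. These ranges overlapped almost entirely, so the order of the 2 genes is not separated by the spread between mice. Ntrk3 ranged from 41.6 to 68.3 TPM, below Ntrk2 and Sort1 in all 6 mice. Bdnf, from 14.1 to 19.6 TPM, Ntf3, from 8.07 to 10.8 TPM, and Ngfr, from 0.99 to 1.75 TPM, were separated from each other and from the 3 genes above with no overlap.

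**Figure D1:**
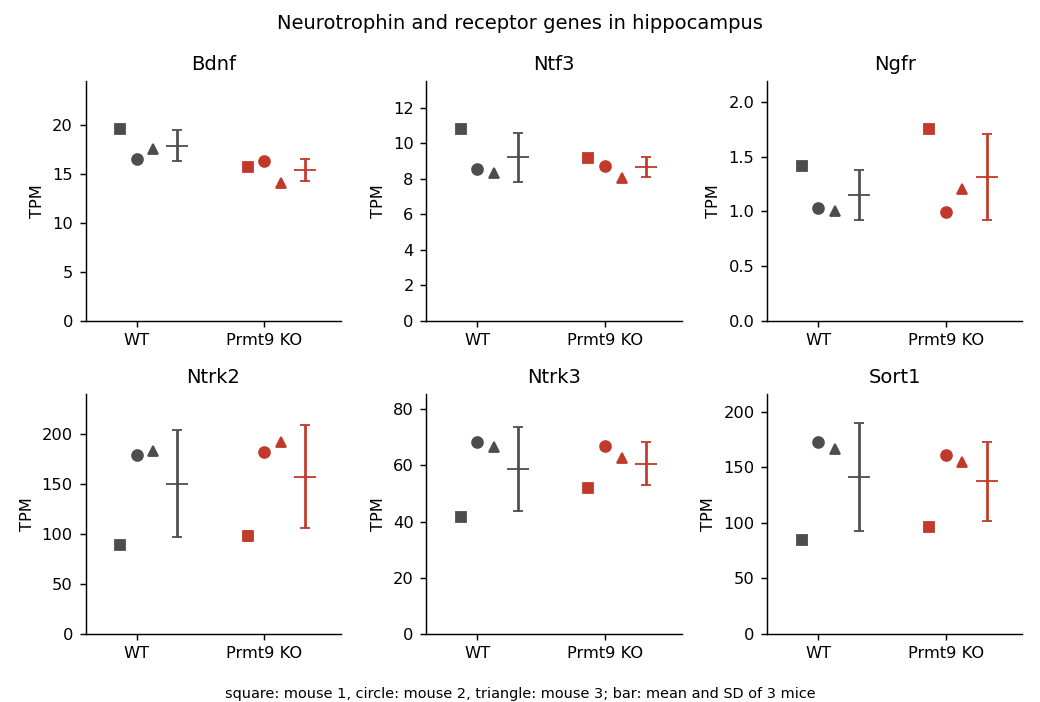
TPM (vertical axes, each from 0) of the 6 genes in WT (grey) and Prmt9 KO (red) mice, with a symbol per mouse and the mean and SD of 3 mice beside them. Squares (mice numbered 1) lie lowest for Ntrk2, Ntrk3 and Sort1 in both genotypes and highest for Ngfr and Ntf3, and Bdnf is the only gene whose genotypes do not overlap, at 14.1 to 16.2 TPM in Prmt9 KO against 16.5 to 19.6 TPM in WT.

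Bdnf was at 19.6, 16.5 and 17.5 TPM in WT mice and at 15.7, 16.2 and 14.1 TPM in Prmt9 KO mice. Every Prmt9 KO mouse was below every WT mouse, with a gap between Prmt9 KO 2 and WT 2 of under 1 TPM. The means were 17.9 ± 1.56 TPM (SD, n = 3) and 15.3 ± 1.13 TPM (SD, n = 3; exact two-sided permutation test, p = 0.1, the smallest p that 3 mice against 3 can give). In the fit of estimated counts, Bdnf had a log2 fold change of −0.32 (SE 0.19) with an unadjusted p of 0.151 and an adjusted p of 1.0 (edgeR). The size of the difference rested largely on WT 1, the mouse with the highest level. Without WT 1 the log2 fold change was −0.09, and without both mice numbered 1 it was −0.16 (edgeR, adjusted p = 0.351). A fit with replicate number as a block gave −0.30, with an unadjusted p of 0.0392 and an adjusted p of 0.791 (edgeR). In that fit 1166 of 20335 genes had an unadjusted p below 0.05. A batch term for the mice numbered 1 gave −0.29 (unadjusted p = 0.0242, adjusted p = 0.481, edgeR). There 1974 of 20335 genes had an unadjusted p below 0.05. Across the 14 alternatives the log2 fold change of Bdnf was negative throughout, between −0.44 and −0.09, and it never passed the threshold.

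Of the 11 annotated Bdnf transcripts, 5 reached a mean of 0.5 TPM, and the other 6 summed to 0.64 TPM. Transcripts that start at exon VI were the most abundant. Bdnf-205, which starts there, was at 9.90, 8.44 and 8.19 TPM in WT mice and at 6.05, 7.65 and 7.27 TPM in Prmt9 KO mice. The groups did not overlap, and the lowest value was that of Prmt9 KO 1. The means were 8.84 ± 0.93 TPM and 6.99 ± 0.84 TPM (SD, n = 3 per genotype; exact permutation test, p = 0.1). The log2 fold change of −0.45 (SE 0.24, unadjusted p = 0.102, adjusted p = 1.0, edgeR on transcripts) was the one with the lowest unadjusted p among the transcripts of the 6 genes. It became −0.15 without both mice numbered 1 and −0.16 without WT 1.

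Exon IV transcripts (Bdnf-209), from the promoter with the TCACGTCA match, were at 3.23, 4.14 and 4.52 TPM in WT and at 4.19, 3.84 and 3.06 TPM in Prmt9 KO mice. Here the groups overlapped, mouse 1 being the lowest of the WT mice and the highest of the Prmt9 KO mice (exact permutation test, p = 0.6). Exon II transcripts summed to 4.05, 2.26 and 2.64 TPM in WT and to 3.41, 2.36 and 1.85 TPM in Prmt9 KO mice, mouse 1 being the highest in both groups. Exon I transcripts (Bdnf-201), the only ones with their own start codon in the list shown, were the least abundant of the 4 classes, at 1.91, 1.27 and 1.81 TPM in WT and at 1.71, 1.90 and 1.51 TPM in Prmt9 KO mice. Exons III and V and the remaining first exons each stayed below a mean of 0.5 TPM.

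As shares of all Bdnf TPM, exon VI made up 49.5% ± 2.41 in WT and 45.8% ± 6.65 in Prmt9 KO mice, exon IV 22.5% ± 5.15 and 24.0% ± 2.49, exon II 16.5% ± 3.70 and 16.5% ± 4.60, and exon I 9.26% ± 1.39 and 11.1% ± 0.53 (SD, n = 3 each). Exon I was the only one of these classes whose shares did not overlap. It held 9.76%, 7.69% and 10.3% in WT mice and 10.9%, 11.7% and 10.7% in Prmt9 KO mice, a difference of 1.85 percentage points (exact permutation test, p = 0.1). The levels of exon I, in TPM, overlapped between the genotypes. The share differences of the other 3 classes had exact permutation p-values of 0.7 (exon VI), 0.8 (exon IV) and 1.0 (exon II). Without the mice numbered 1, those of exons IV and VI changed sign, from 1.55 to −2.74 points and from −3.71 to 0.47 points.

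Within exon II, the share of the longest form was looked at after the values were seen. It was 66.2%, 64.0% and 72.0% in WT mice and 55.5%, 62.6% and 64.0% in Prmt9 KO mice, with a gap of less than 0.1 points between the groups (exact permutation test, p = 0.1). As shares of estimated counts the groups overlapped, WT 2 being at 64.7% and Prmt9 KO 3 at 65.0% (exact permutation test, p = 0.2). The estimated counts behind the longest form were 653 to 1377 per mouse.

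**Figure D2:**
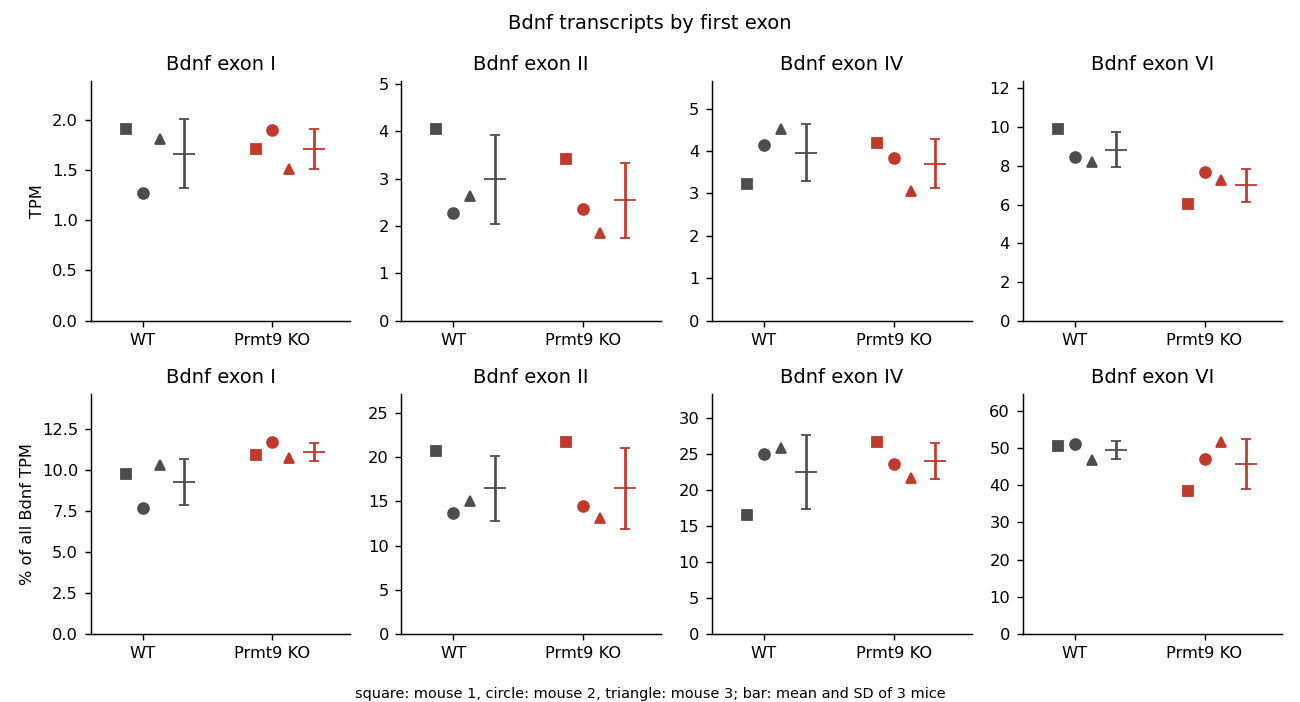
Bdnf transcripts grouped by first exon, as TPM (upper row) and as percent of all Bdnf TPM (lower row), with a symbol per mouse and the mean and SD of 3 mice. Exon VI in TPM (6.05 to 7.65 in Prmt9 KO, 8.19 to 9.90 in WT) and exon I as a share (10.7% to 11.7% against 7.69% to 10.3%) are the 2 panels in which the genotypes do not overlap.

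Ntf3 (ENSMUSG00000049107, chr6:126101412-126166910, minus strand), the ligand of TrkC, was at 10.8, 8.54 and 8.32 TPM in WT and at 9.17, 8.76 and 8.07 TPM in Prmt9 KO mice. The groups overlapped, and mouse 1 was the highest in both. The log2 fold change was −0.18 (SE 0.24, adjusted p = 1.0, edgeR), and 0.00 without both mice numbered 1. Most Ntf3 RNA was assigned to Ntf3-203, which starts at a downstream first exon and encodes 271 codons. Its share of Ntf3, looked at after the values were seen, was 91.7% ± 2.40 in WT and 87.9% ± 7.40 in Prmt9 KO mice (SD, n = 3 per genotype; exact permutation test, p = 0.7). Ntf3-201, from the upstream first exon with 258 codons, had a mean of 0.86 TPM.

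Ntrk2, the receptor of BDNF, was at 89.1, 179.3 and 183.2 TPM in WT mice and at 97.9, 181.8 and 192.1 TPM in Prmt9 KO mice. Mouse 1 had 49.2% of the mean of mice 2 and 3 in WT and 52.4% in Prmt9 KO. The mean of mice 2 and 3 in Prmt9 KO was 103.1% of that in WT. The log2 fold change was 0.02 (SE 0.25, adjusted p = 1.0, edgeR).

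In TPM, truncated Ntrk2 exceeded full-length Ntrk2 in every mouse. Full-length transcripts (Ntrk2-201 and Ntrk2-207) summed to 29.9, 62.4 and 60.9 TPM in WT and to 44.3, 59.9 and 53.3 TPM in Prmt9 KO mice. The 5 truncated transcripts summed to 57.6, 114.5 and 119.5 TPM in WT and to 51.6, 119.4 and 136.4 TPM in Prmt9 KO mice. Both sums overlapped between the genotypes. The full-length share of the 2 sums was 34.2%, 35.3% and 33.7% in WT mice and 46.2%, 33.4% and 28.1% in Prmt9 KO mice. The WT mice were within 2 points of each other, whereas the Prmt9 KO mice lay on both sides of them. The difference of means was 1.51 percentage points (exact permutation test, p = 1.0), and −3.75 points without the mice numbered 1.

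Among truncated Ntrk2 forms, the T1 tail (Ntrk2-202 and Ntrk2-204) accounted for 54.0, 101.2 and 104.6 TPM in WT and 49.1, 104.4 and 116.3 TPM in Prmt9 KO mice. As a share of truncated Ntrk2, a measure added after the values were seen, this was 89.8% ± 3.33 and 89.3% ± 5.23 (SD, n = 3 each). Ntrk2-204 by itself was at 6.68, 5.82 and 4.71 TPM in WT and at 0, 6.05 and 2.98 TPM in Prmt9 KO mice. The mouse at 0 TPM, Prmt9 KO 1, was the one with the highest full-length share. Whether the assignment of reads to Ntrk2-204 played a part in that share was not tested. The second truncated form, Ntrk2-205, which ends in an exon just downstream of the shared donor (start at position 58878339), was at 2.56, 11.7 and 12.8 TPM in WT and at 1.16, 13.8 and 18.0 TPM in Prmt9 KO mice. Its level in the mice numbered 1 was the lowest of each group by a wide margin, and in mice 2 and 3 both Prmt9 KO values were above both WT values. Without the mice numbered 1 its log2 fold change was 0.38 (SE 0.14, unadjusted p = 0.0451, adjusted p = 0.506, edgeR). It was the 1 transcript of the 6 genes with an unadjusted p below 0.05 there, where 9.71% of the 77144 transcripts tested had one. Ntrk2-208 had a mean of 1.44 TPM. Of the remaining named Ntrk2 transcripts, Ntrk2-206, annotated as non-coding, had a mean of 1.32 TPM and Ntrk2-203, annotated as a target of nonsense-mediated decay, of 0.93 TPM.

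**Figure D3:**
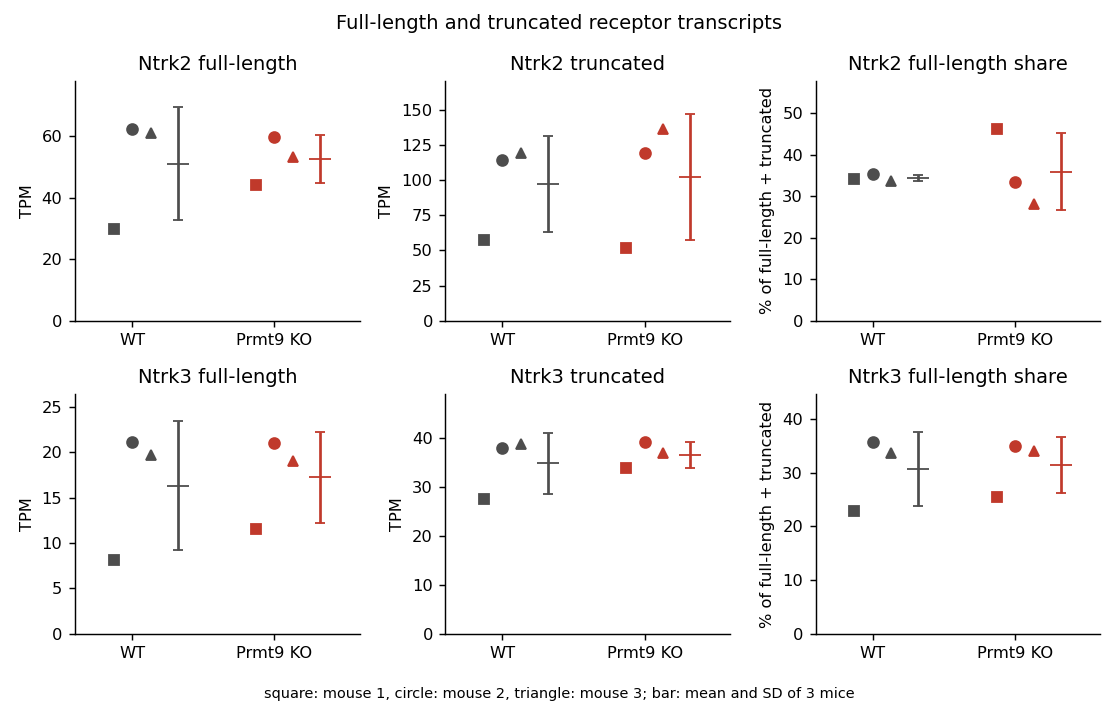
Summed TPM of full-length and truncated transcripts of Ntrk2 (upper row) and Ntrk3 (lower row), and the full-length share in percent of both, with a symbol per mouse and the mean and SD of 3 mice. In TPM, truncated forms exceed full-length forms in every mouse, and the Ntrk3 share is lower in the mice numbered 1 of both genotypes (22.8% and 25.5%) than in the others (33.7% to 35.7%).

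Ntrk3, the receptor of neurotrophin-3, was at 41.6, 68.3 and 66.6 TPM in WT mice and at 52.0, 67.0 and 62.8 TPM in Prmt9 KO mice. The groups overlapped, and the log2 fold change was 0.03 (SE 0.20, adjusted p = 1.0, edgeR), with the sign turning (−0.025) without the mice numbered 1. Full-length Ntrk3 (Ntrk3-201, Ntrk3-205 and Ntrk3-206) summed to 8.14, 21.1 and 19.7 TPM in WT and to 11.6, 21.1 and 19.0 TPM in Prmt9 KO mice. The truncated form, Ntrk3-202, was at 27.6, 38.0 and 38.9 TPM in WT and at 33.9, 39.2 and 36.9 TPM in Prmt9 KO mice. The full-length share was 22.8%, 35.7% and 33.7% in WT and 25.5%, 34.9% and 34.0% in Prmt9 KO mice (difference 0.76 points, exact permutation test, p = 0.8; −0.21 points without the mice numbered 1). Mice 1 of both genotypes had the lowest shares, and in mice 2 and 3 the 4 values lay between 33.7% and 35.7%.

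The level of the share itself depended on the unit. Ntrk3-201 is annotated with 19703 bases and Ntrk3-202 with 3977 bases, so full-length Ntrk3 was 30.7% ± 6.94 of the TPM in WT but 66.8% ± 7.06 of the estimated counts (SD, n = 3). In Prmt9 KO mice these values were 31.5% ± 5.21 and 68.0% ± 4.57 (SD, n = 3). For Ntrk2, whose forms are closer in length, the full-length share in WT was 34.4% ± 0.78 of the TPM and 40.0% ± 1.06 of the estimated counts (SD, n = 3). In Prmt9 KO mice it was 35.9% ± 9.31 and 40.9% ± 9.34 (SD, n = 3), and in Prmt9 KO 1 the full-length forms held 51.1% of the estimated counts.

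Full-length Ntrk3 comes with or without an insert in the kinase domain, encoded by small exons, and TrkC receptors with this insert are known for weaker kinase signalling. The exons were shown in capitals because they distinguish Ntrk3-205, which carries the 42-base exon and 839 codons, and Ntrk3-206, which carries both exons and 864 codons, from Ntrk3-201 with 825 codons (GENCODE M21, minus strand, chr7:78229487-78229561 and chr7:78204103-78204144).
75-base exon: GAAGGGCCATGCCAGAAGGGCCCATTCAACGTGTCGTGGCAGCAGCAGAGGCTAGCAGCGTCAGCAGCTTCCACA
42-base exon: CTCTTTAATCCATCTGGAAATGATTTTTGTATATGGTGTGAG
The share of full-length Ntrk3 TPM with an insert, looked at after the values were seen, was 7.55%, 13.7% and 10.5% in WT and 4.63%, 13.7% and 10.8% in Prmt9 KO mice. It was lowest in the mice numbered 1 and did not differ beyond the spread between mice (exact permutation test, p = 1.0), and the difference of means changed sign, to 0.17 points, without the mice numbered 1. Ntrk3-205 and Ntrk3-206 are annotated with 2678 and 2774 bases, and the estimated counts behind the insert forms were 180 to 1146 per mouse. Of the 16 Ntrk3 transcripts that are neither full-length nor truncated by the rule used here, 3 reached 0.5 TPM: Ntrk3-220 (mean 4.85 TPM), Ntrk3-215 (0.58 TPM) and Ntrk3-211 (0.58 TPM).

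Ngfr (ENSMUSG00000000120, chr11:95568818-95587735, minus strand) has 1 annotated transcript, and it was the lowest of the 6 genes. It was at 1.41, 1.03 and 1.003 TPM in WT and at 1.75, 0.99 and 1.20 TPM in Prmt9 KO mice. Mouse 1 was the highest in both groups, and the groups overlapped (log2 fold change 0.10, SE 0.36, adjusted p = 1.0, edgeR). The sign of this value changed when WT 2, WT 3 or Prmt9 KO 1 was left out.

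Sort1 (ENSMUSG00000068747, chr3:108284082-108361511, plus strand), which binds neurotrophin precursors and takes part in sorting BDNF for secretion, was at 84.8, 172.6 and 166.0 TPM in WT and at 96.6, 161.3 and 154.3 TPM in Prmt9 KO mice. As for Ntrk2, mouse 1 was far below the others, at 50.1% of the mean of mice 2 and 3 in WT and 61.2% in Prmt9 KO. The log2 fold change was −0.09 (SE 0.24, adjusted p = 1.0, edgeR). In mice 2 and 3, both Prmt9 KO values were below both WT values. Without the mice numbered 1 the log2 fold change was −0.10, with an unadjusted p of 0.0530 and an adjusted p of 0.309 (edgeR), the lowest adjusted p of the 6 genes over all alternatives.

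The 2 coding Sort1 transcripts differ in a cassette exon of 99 bases, a multiple of 3, which is shown because the forms with and without it are told apart by it alone in the coding sequence (chr3:108355472-108355570, plus strand, GENCODE M21).
Sort1 99-base exon: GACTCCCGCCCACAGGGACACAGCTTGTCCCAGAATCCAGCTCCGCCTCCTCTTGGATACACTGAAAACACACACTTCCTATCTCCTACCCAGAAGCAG
Sort1-203 with the exon encodes 858 codons and Sort1-201 without it 825 codons. The share with the exon, looked at after the values were seen, was 19.3%, 17.0% and 16.5% in WT and 22.8%, 17.2% and 15.7% in Prmt9 KO mice. Mouse 1 was the highest in both groups, and the groups overlapped (difference 0.99 points, exact permutation test, p = 0.8; −0.30 points without the mice numbered 1). The other Sort1 transcript, Sort1-202, annotated as a retained intron that spans this exon, was at 13.8 to 15.9 TPM in WT and 13.5 to 14.3 TPM in Prmt9 KO mice, mouse 1 being the highest of WT and the lowest of Prmt9 KO.

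At the level of transcripts, 38 of the 48 passed the filter on low counts and 10 did not. None of the 38 had an unadjusted p below 0.05 with edgeR, against 1.61% of the 75682 transcripts tested, of which edgeR called 0 and DESeq2 110. With DESeq2, Ntf3-202, at 0 TPM in all WT mice and at 0.34, 0 and 0.05 TPM in Prmt9 KO mice, had an unadjusted p below 0.05. The genotypes did not overlap in TPM for 2 of the 38, Bdnf-205 and Ntrk3-204, against 7.50% of all transcripts tested. Ntrk3-204, a retained-intron transcript outside the rule for named transcripts, had a mean of 0.07 TPM. As shares of their gene's TPM, 1 of 37 did not overlap, Bdnf-201, against 9.03% of 71133 transcripts. In the test of relative transcript usage, edgeR called 23 of 13561 genes (0.170%) at an adjusted p of 0.01, and 13 with the replicate block. The 5 genes with more than 1 transcript were tested and none was called, the adjusted p being at least 0.889 for each of them over the 13 settings run (edgeR and limma). Unadjusted p-values below 0.05 were those of Ntrk2 with limma (0.0172) and of Bdnf without WT 2 (0.0289, edgeR). Over all genes, 548 of 13561 and 564 of 13766 had one in these settings.

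The pathway around these genes was followed in a list of 47 genes by role. All 47 were tested, edgeR called none in either direction, and a single gene reached an unadjusted p below 0.05. Their log2 fold changes had a median of −0.02, beside −0.01 for all genes, with 18 positive and 29 negative values. Ntf5 (neurotrophin-4, also a TrkB ligand) had a mean of 0.45 TPM (log2 fold change −0.14, SE 0.28). Among the 4 relatives of sortilin, the values ran from −0.19 for Sorl1 to 0.08 for Sorcs1. Among 6 partners of p75, they ran from −0.15 for Rtn4r, the Nogo receptor, to 0.00 for Bex3. Without the mice numbered 1, Ntf5 was at 0.11 and Sorcs1 at −0.06, both with the sign turned.

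Of 9 genes that process neurotrophin precursors, Pcsk7, a proprotein convertase, was the one with an unadjusted p below 0.05. It was at 25.8, 33.7 and 33.2 TPM in WT and at 26.6, 34.9 and 38.4 TPM in Prmt9 KO mice, with overlapping groups (log2 fold change 0.24, SE 0.09, unadjusted p = 0.0392, adjusted p = 1.0, edgeR). The 9 values ran from −0.18 for Pcsk6 to 0.33 for Mmp9, a secreted protease. Of 15 adaptors and effectors of Trk receptors, 7 had positive and 8 negative values, from −0.19 for Gab1 to 0.16 for Pik3r1. Of 12 regulators of Bdnf transcription, 3 had positive and 9 negative values, from −0.21 for Npas4, an activity-induced factor, to 0.10 for Carf, a calcium-responsive factor.

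Without the mice numbered 1, a count added after the values were seen, 12 of the 47 genes had an unadjusted p below 0.05 (25.5%), against 16.4% of 20498 genes, 3 of them higher and 9 lower in Prmt9 KO mice. Over all genes, 1600 of those with such a p were higher and 1760 lower. Their log2 fold changes lay between −0.29 (Npas4) and 0.23 (Pcsk7), none was called, and the lowest adjusted p was 0.128 (edgeR). With 2 mice a group, Npas4 was at 10.1 and 10.4 TPM in WT and at 7.52 and 9.49 TPM in Prmt9 KO mice. Sorl1 was at 81.9 and 78.9 TPM in WT and at 71.6 and 64.0 TPM in Prmt9 KO mice.

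**Figure D4:**
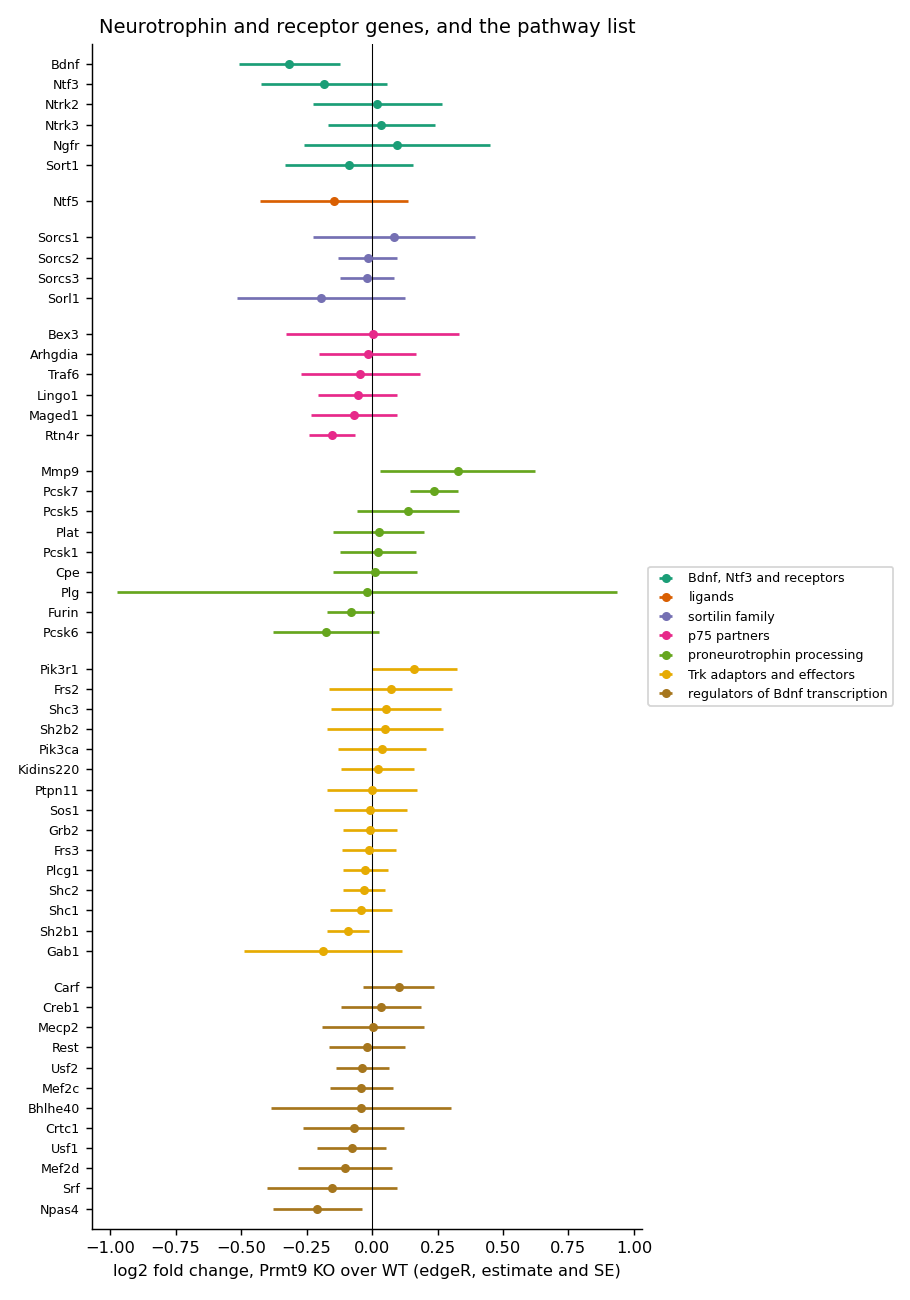
Log2 fold change, Prmt9 KO over WT, of the 6 genes and of the 47 genes of the pathway list by role, with the standard error of the edgeR fit as bars. The values run from −0.32 for Bdnf to 0.33 for Mmp9, and Pcsk7 lies at 0.24.

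For each of the 6 genes, the genes with the most similar pattern over the 6 mice were sought by Pearson's r of log2(TPM + 1) among 15130 others with a mean of at least 1 TPM. The points share libraries, and the difference between mice 1 and the rest enters every r. For Bdnf they were Fcrls (0.97), Tomm40l (0.97) and Pthlh (0.96), and 29 genes had an r above 0.9. For Ntf3 they were Ergic2, Neurod1 and Tmem70, for Ngfr B830017H08Rik, Pcdh18 and Rnaseh2b, for Ntrk2 Ndrg2, Dnajc1 and Tgfbr1, for Ntrk3 Mmp16, Oxr1 and Pigg, and for Sort1 Dgki, Akap13 and Slc24a2, each with an r above 0.99. The number of genes with an r above 0.9 was 964 for Ntf3 and 952 for Ngfr, whose levels were highest in the mice numbered 1, and 5007, 5638 and 5282 for Ntrk2, Ntrk3 and Sort1, whose levels were lowest there.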

How the data were processed

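RNA-seq of poly(A) RNA (stranded TruSeq libraries, paired ends) from 3 WT and 3 Prmt9 KO mice was analysed from 2 kinds of deposited file. The authors quantified transcripts with kallisto (version 0.46.0 in the submitters' processing notes, another version in the study's methods) and deposited estimated counts and TPM per transcript and mouse. They also deposited a table of TPM per gene, made with tximport, which equals the sum over transcripts. Junction reads were not used here, and kallisto assigns reads shared by transcripts by their likelihood, so isoform values depend on the annotated ends.

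Of 118783 transcripts, 116710 matched GENCODE M21 (GRCm38), and the 2073 others, with at most 0.7% of the estimated counts, were left out. Estimated counts were rounded and tested with edgeR 4.0.16 (TMM, filterByExpr, quasi-likelihood test, Benjamini-Hochberg over all features, called at adjusted p below 0.01 and fold above 1.5; diffSpliceDGE with the Simes test for usage, on R 4.3.3). Alternatives used DESeq2 1.42.0, which the study used, and limma 3.58.1. Single values and shares of TPM were compared by exact two-sided permutation tests. P-values set a difference against the spread between mice, 3 a group or fewer where mice were left out. Those of the fits also draw on the spread of the other features tested. The fits were also run on simulated counts, the outcome of which is not reported here.

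Full-length transcripts share the stop codon of the longest coding sequence, and truncated ones are coding with another stop codon. Transcripts with a mean of at least 0.5 TPM are named, and from the pathway list the genes with the highest and lowest fold change of a role and those with an unadjusted p below 0.05. From the pathway list, 2 genes are not reported here. The genes, lists and tests were chosen with earlier results of these data known. Deviations from the group mean correlated between equally numbered mice (r = 0.55, 0.42 and 0.38 over genes), so the numbers were treated as pairs in an alternative fit. The labels do not say what a number stands for.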

Additional observations from a re-analysis of the deposited data

How the results depend on the processing

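None of the 6 genes passed the threshold under any of the 14 alternatives for genes, and the lowest adjusted p was 0.309 (edgeR). Of 304 alternative values, 259 were labelled as unchanged and 34 changed direction. The 259 include share differences that could not change: the mean of the paired differences and the restriction to complete coding sequences. They also include adjusted p-values for usage and counts of calls, which have no direction. The count of 259 is therefore no measure of how stable the results are. Called genes numbered 0 in the fit reported, 2 with DESeq2 (Gm3373 and Prmt9), and 1 (Prmt9) when mice numbered 1 had a batch term or were left out. Called transcripts numbered 110 with DESeq2 against 0. Genes called for usage numbered 23, against 4 with limma on voom weights (Arhgap33, Ehmt2, Nrxn2 and Skiv2l), 1 with at least 10 counts in every mouse (Arhgap33), 52 with the batch term, 249 without both mice numbered 1, and 9 (without Prmt9 KO 3) to 143 (without WT 1) when 1 mouse was left out. With the replicate number as a block, 13 genes were called for usage, and the block changed no other call.

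Leaving out 1 mouse at a time, the log2 fold change ranged from −0.31 to 0.11 for Ntf3, −0.15 to 0.21 for Ntrk2, −0.13 to 0.15 for Ntrk3, −0.23 to 0.44 for Ngfr and −0.27 to 0.086 for Sort1. Without both mice numbered 1 it was 0.002 for Ntf3 and −0.025 for Ntrk3. The full-length share difference ranged from −3.64 to 5.41 points for Ntrk2 and from −3.21 to 3.76 for Ntrk3 when 1 mouse was left out, and was −3.75 and −0.21 without both mice numbered 1. For the first exons of Bdnf, leaving out 1 mouse gave 1.06 to 2.38 points for exon I, −2.64 to 2.08 for exon II, −1.42 to 3.21 for exon IV and −6.65 to −0.10 for exon VI, and leaving out both mice numbered 1 gave −2.74 for exon IV and 0.47 for exon VI. The shares added after the data were seen ranged over −1.14 to 2.43 points for the Sort1 exon, −2.86 to 1.68 for the Ntrk3 insert, −3.50 to 1.48 for T1 among truncated Ntrk2, −8.42 to −4.13 for the longest exon II form and −6.73 to 0.32 for Ntf3-203, and without both mice numbered 1 were −0.30 for the Sort1 exon and 0.17 for the insert. The cause of these changes was not tested. Restricting to complete coding sequences left the shares as they were by construction. Depth limits the transcripts with few estimated counts, such as Ntrk3-211 with 1.9 to 27.5 per mouse.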
